A study of Mus musculus with 58 samples.

Results

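Lung and liver of the same untreated mice were compared, with 5 lung and 5 liver arrays taken out of the 58 arrays of the series. The members were the samples titled as vehicle (D0) lung and vehicle (D0) liver. The mice were adult male Muta™Mouse, a transgenic strain that carries a bacterial reporter gene for mutation assays, aged about 10 weeks. They received olive oil by oral gavage on each of 28 consecutive days, and tissue was taken 72 h after the last dose, so that "vehicle" means gavaged with the solvent and not undisturbed. RNA came from a random slice of the left liver lobe and of the right lung lobe of each mouse. Each array carried the Cy5-labeled RNA of 1 tissue of 1 mouse beside the same Cy3-labeled universal mouse reference RNA, a pool from cell lines. The mice numbered 1 to 5 gave both tissues, so lung and liver were compared within each mouse. Elsewhere in the series such mice were given benz(a)anthracene (BaA), which belongs to the polycyclic aromatic hydrocarbons, and the vehicle tissues served as its controls. The lungs and livers of mice dosed at 20 mg (D1), 40 mg (D2) or 80 mg (D3) per kg body weight per day are used below only to see how the tissue difference looked in other animals.

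The liver is made up mostly of hepatocytes, which secrete most plasma proteins, make bile acids, convert ammonia to urea and hold much of the body's drug-metabolizing capacity. Blood enters the liver through sinusoids with a perforated endothelium, lined with resident macrophages named Kupffer cells. The lung is built for gas exchange: flat alveolar type 1 cells and a dense capillary bed form the barrier, cuboidal alveolar type 2 cells secrete surfactant, club and ciliated cells line the airways, and alveolar macrophages patrol the air spaces. Hepatocyte genes are under factors of the HNF4 and forkhead families, among others, while NKX2-1 is the factor that marks lung epithelium, and forkhead factors work in both organs. Polycyclic aromatic hydrocarbons are activated by cytochrome P450 enzymes of the CYP1 family, whose genes answer to the aryl hydrocarbon receptor (AHR), and the balance of activation, conjugation and repair is known to differ between these organs.

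The promoters of 4 genes that stood far apart between the tissues are shown because each holds the letters of a motif known from promoters of its tissue. They are RefSeq sequences on GRCm38.p6, and each line gives the 120 bases before the gene's start. Capitals mark GTTAAT, a half-site known from hepatocyte promoters, or its reverse complement, and in the last line CTCAAG, a core motif of NKX2-1.
Alb: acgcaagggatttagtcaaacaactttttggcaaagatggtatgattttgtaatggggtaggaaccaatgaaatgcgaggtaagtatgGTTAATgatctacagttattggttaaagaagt
Fga: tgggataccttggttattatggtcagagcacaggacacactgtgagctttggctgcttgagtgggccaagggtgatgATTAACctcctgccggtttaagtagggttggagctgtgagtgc
Fgb: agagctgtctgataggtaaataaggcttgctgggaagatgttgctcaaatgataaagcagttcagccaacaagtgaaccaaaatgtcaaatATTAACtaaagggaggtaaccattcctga
Sftpb: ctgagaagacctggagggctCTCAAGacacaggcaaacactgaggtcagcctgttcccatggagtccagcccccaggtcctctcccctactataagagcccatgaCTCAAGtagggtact

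The Alb stretch, of the albumin gene, lies at chr5:90460750-90460869 on the plus strand. The Fga and Fgb stretches, of the genes for the fibrinogen alpha and beta chains, lie at chr3:83026033-83026152 on the plus strand and chr3:83049864-83049983 on the minus strand. The Sftpb stretch, of the gene for surfactant protein B, lies at chr6:72304490-72304609 on the plus strand. Counted back from the gene's start, the half-site begins at base -32 in Alb, -43 in Fga and -29 in Fgb, and the NKX2-1 core begins at bases -100 and -15 in Sftpb. On either strand, GTTAAT was in the 250 bases before the start of 7.49% of the 27025 mouse genes with a promoter entry, and CTCAAG was in 15.2%. A match is a description of letters and shows no binding. The share of the tissue-high genes that hold each motif is not given here and was not tested, since under 80% of them had a promoter entry.

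The level of a probe is given as log2 of tissue RNA over reference RNA, and a difference is lung minus liver on that scale, so that 1 unit is 2-fold and a negative difference is higher in liver. A probe entered the test where 4 or more of the 5 arrays of either tissue had its Cy5 signal well above background, and it was called by limma at an FDR-adjusted P of at most 0.05 with a fold change of at least 1.5. Lung arrays correlated with each other at 0.893 to 0.973, liver arrays at 0.958 to 0.974, and lung with liver arrays at 0.361 to 0.406. Between 44.4% and 53.9% of spots were well above background on lung arrays and 36.1% to 45.7% on liver arrays. Each of the 6 slides held arrays of 1 tissue, so tissue and slide cannot be told apart. In bulk tissue, fewer cells of a type and less RNA per cell cannot be told apart either. For genes with a very large difference the reference channel, which holds the same RNA on every array, also moved: among the 599 probes called at least 16-fold higher in liver, 168 had a Cy3 signal more than 2-fold higher on the liver arrays, against 251 of all 26249 probes tested. For Alb the mean Cy3 signal was 5.68 on lung and 12.25 on liver arrays, and the Cy5 signal alone differed by -12.63 where the ratio differed by -6.41.

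The lung array of mouse 5 stood apart. Of the probes tested, 104 were at least 4-fold above all the other 4 lungs on it, against 0 to 5 on each other lung array and 0 to 3 on each liver array. Skeletal muscle genes were high on this array: Acta1, skeletal alpha-actin, was at 5.77 in the lung of mouse 5 and between -1.81 and -1.44 in the other lungs. Tnni2, the fast-fiber troponin I, was at 6.71 there and between -0.75 and -0.50 elsewhere, and Myh4, a fast myosin heavy chain that was too dim elsewhere to be tested, was at 5.65 against -0.06 to 0.11. Genes of squamous epithelium were high on the same array, of which Krt13 and Krt4 were also too dim elsewhere to be tested. Krt13 was at 5.16 against -2.14 to -1.74, Krt4 at 6.64 against -0.04 to 0.13, and Krt14, the basal cell keratin, at 3.48 against -1.28 to -0.36. The mean level of the 4 skeletal muscle genes tested was 5.33 on this array and -0.823 to -0.759 on the other lung arrays. Heart muscle genes were high on a pair of arrays, those of mice 4 and 5: Myl7, the atrial light chain, was at 5.80 and 5.38 there and at 3.29, 2.00 and 1.2 in the lungs of mice 1 to 3. What put these genes on those arrays was not tested. Without mouse 5 the numbers of calls were 14387 in all, 8096 higher in lung and 6291 higher in liver, and single results that rest on that array are given below without it.

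**Figure D1:**
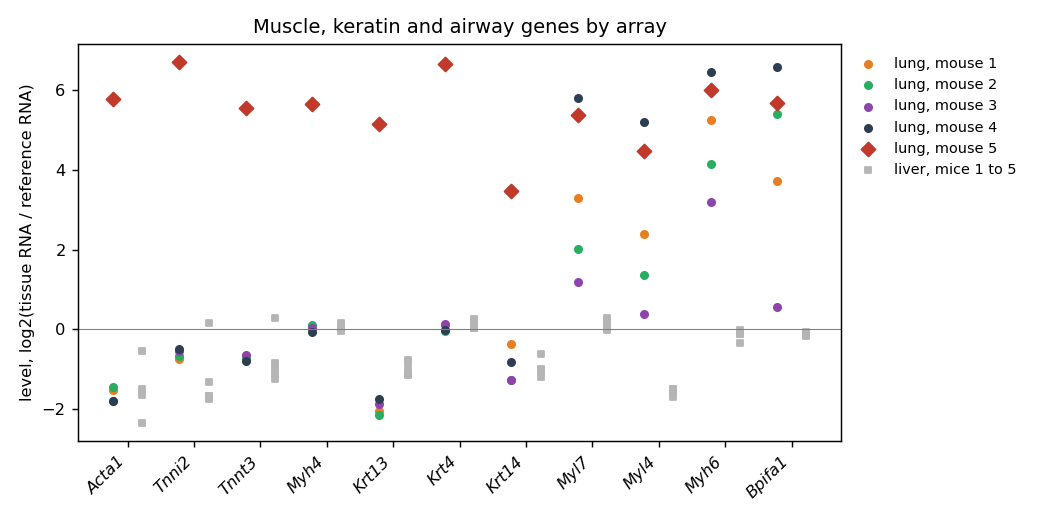
Levels (log2 of tissue RNA over reference RNA) of muscle, keratin and airway genes on each of the 10 arrays, with lung arrays by mouse and liver arrays in gray. The lung of mouse 5 (diamond) is the 1 lung array high for Acta1, Tnni2, Tnnt3, Myh4, Krt13, Krt4 and Krt14, while the lungs of mice 4 and 5 are the highest for Myl7, Myl4 and Myh6 and that of mouse 3 is the lowest for Bpifa1.

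Of the 26249 probes tested, 14203 (54.1%) were called different between vehicle lung and vehicle liver. There were 7986 (30.4%) higher in lung and 6217 (23.7%) higher in liver. At an unadjusted P under 0.05 there were 20436. The split depended on the centring: with each array centred on its median in place of the within-array LOWESS, the median difference shifted by 0.251 toward lung, and the share of calls that were higher in lung went from 56.2% to 69.6%, with 3559 probes higher in liver. The 5 lung and 5 liver values did not overlap for 16769 probes (63.9%). Differences above 16-fold were more often toward liver, with 320 probes higher in lung and 599 higher in liver. With the brightest probe standing for each gene, 4611 of 13653 genes (33.8%) were higher in lung and 3479 (25.5%) were higher in liver. Among the 10440 genes well above background in both tissues the shares were 29.3% higher in lung and 27.7% higher in liver, and these are the background shares for the lists below.

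**Figure D2:**
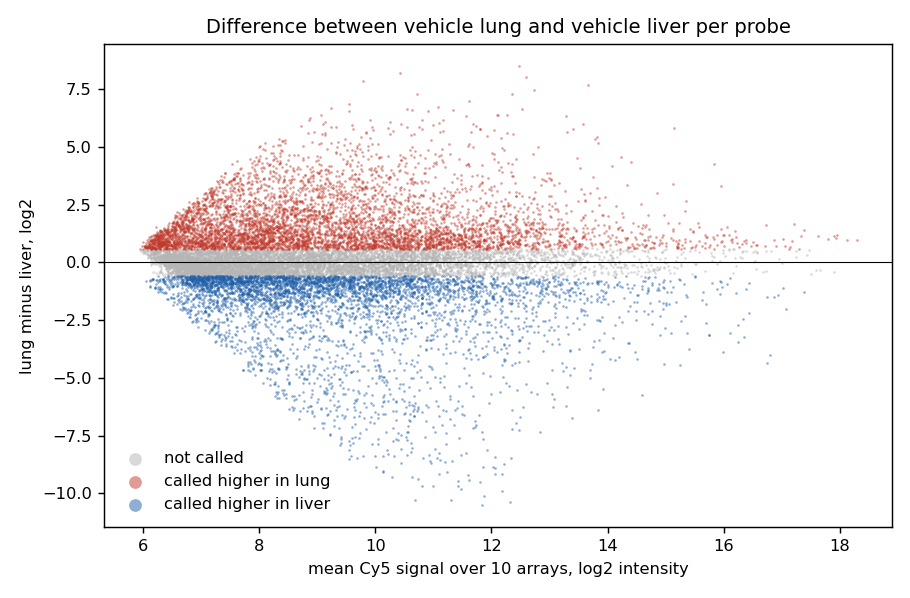
Lung minus liver difference (log2, vertical) against the mean Cy5 signal over the 10 arrays (log2 intensity, horizontal) for each probe tested that has a gene symbol, colored by call. Probes above 16-fold toward lung lie at the top and those toward liver at the bottom, where Ambp (-10.39) and Serpinc1 (-10.11) are among the lowest points.

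Genes measured well above background in both tissues with the largest difference toward lung began with Mgp, which codes for matrix Gla protein, an inhibitor of calcification. Its level was 6.46, 5.86, 6.29, 5.64 and 5.31 in the lungs of mice 1 to 5 and -0.14, -3.21, -2.43, -2.48 and -2.45 in the livers. The liver of mouse 1 was well above the other livers and still far below every lung, and the mean difference was 8.05 (SE 0.31, adjusted P = 5.84e-08). The other 9 genes of this rank were Cbr2 (carbonyl reductase 2, an enzyme of lung mitochondria), Gsn (gelsolin, which severs actin filaments), S100a6, Sftpd (surfactant protein D), Tspan13, Clic5, Sparcl1, Lyz1 (lysozyme) and Scd2 (a fatty acid desaturase), with differences from 7.71 for Cbr2 down to 6.34 for Scd2. All 10 were higher in lung in 5 of 5 mice, which the rank required of its genes. The rank is by the ratio, and the order was not the same in the Cy5 signal alone. There Cbr2 (9.73) and Sftpd (8.01) differed more than Mgp (7.77).

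Toward liver the same rank began with Rgn, which codes for regucalcin, a calcium-binding lactonase of the vitamin C pathway. Its level was between 0.13 and 0.82 in the lungs and between 10.12 and 10.66 in the livers, a difference of -9.83 (SE 0.14, adjusted P = 4.70e-10). Hpx (hemopexin, the plasma heme carrier), Apob (the protein of VLDL and LDL), Slc27a2 (a very long chain acyl-CoA synthetase), Sult2a8 (a sulfotransferase), Tfr2 (transferrin receptor 2), Itih3, H2-Q10 (a secreted MHC class I molecule), Serpina3m and Cpb2 (which slows clot lysis) followed, from -9.15 for Hpx to -7.85 for Cpb2. All of these were higher in liver in 5 of 5 mice, which the rank required here too. In the Cy5 signal alone Hpx (-10.95) differed more than Rgn (-10.09).

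Where a probe was not well above background on any array of the dimmer tissue, the fold is only a lower bound. It was taken from the Cy5 channel, and with no dye swaps it is open to dye bias. The levels printed beside it are ratios to the reference and give other folds. These were 366 for Scgb1a1 and 159 for Sftpc, below their bounds, and 236 for Limch1, above its bound of 169. Other probes that passed on fewer than 4 arrays of the dimmer tissue are given as plain differences, with that side near background. Ambp, Serpinc1, Mup20 and Pck1 are such genes, and so are not in the ranks above. Scgb1a1, the secretoglobin of club cells, was at 8.50, 8.76, 8.54, 8.57 and 8.27 in the lungs and between -0.13 and 0.10 in the livers, and was at least 7505-fold higher in lung. Sftpc, surfactant protein C of alveolar type 2 cells, was at 7.42, 7.64, 7.61, 7.38 and 7.11 in the lungs and between -0.05 and 0.41 in the livers, at least 6961-fold higher in lung. Sftpb and Sftpa1 followed at no less than 1234-fold and 1078-fold, then Ager, Chil1, Cxcl15, Aqp5, Limch1 and Clic3, from at least 205-fold for Ager to at least 155-fold for Clic3. These code for secreted proteins of the surfactant and airway lining and for membrane proteins of alveolar type 1 cells, among others.

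Toward liver the bounds were largest for Mug1 (murinoglobulin 1, a plasma protease inhibitor) at no less than 3060-fold and for Ttr (transthyretin, the carrier of thyroxine) at no less than 2894-fold. Ces3a, Apoc3, Apoa1, Cyp2d26, Mbl2, Akr1c6 and Mug2 followed, from at least 2709-fold for Ces3a to at least 1425-fold for Mug2. The liver of mouse 5 stood low for Akr1c6, a hydroxysteroid dehydrogenase, which was at 11.19, 10.87, 11.36 and 10.88 in the livers of mice 1 to 4 and at 7.91 in that of mouse 5.

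**Figure D3:**
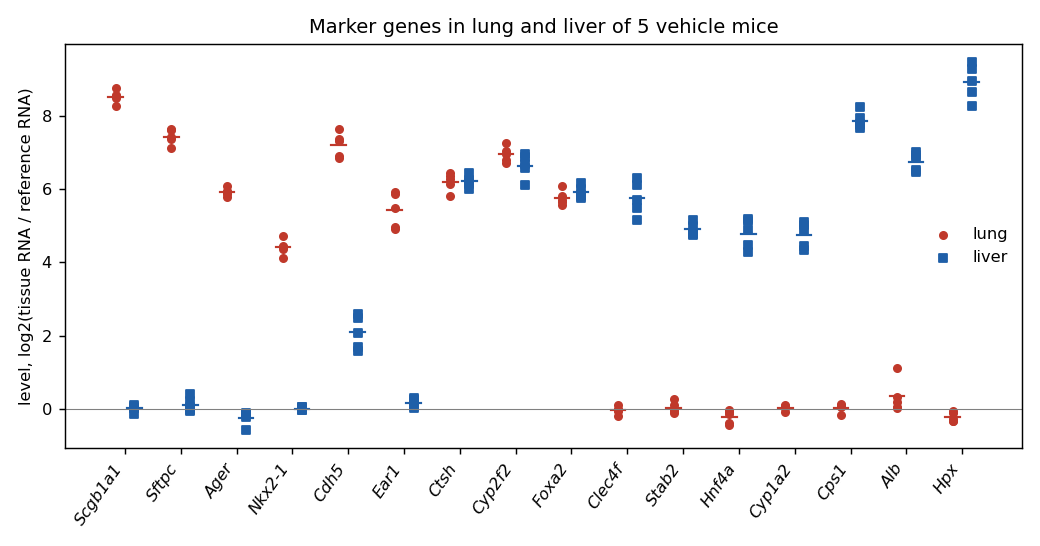
Levels (log2 of tissue RNA over reference RNA) of 16 marker genes in the lungs (circles) and livers (squares) of the 5 vehicle mice, with a line at each mean. Scgb1a1 to Ear1 are high on the 5 lung arrays, Clec4f to Hpx on the 5 liver arrays, and Ctsh, Cyp2f2 and Foxa2 overlap between the tissues.

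Plasma protein genes were almost all higher in liver: of 25 tested, 24 were called higher in liver and 0 higher in lung, with a median difference of -6.65. Of the 12 that were well above background in both tissues, 11 were called. Alb was at 1.11, 0.31, 0.03, 0.05 and 0.18 in the lungs and at 7.01, 6.46, 6.92, 6.51 and 6.86 in the livers, a difference of -6.41 (SE 0.15, adjusted P = 3.31e-09). The lung of mouse 1 had the highest lung value, and Alb was well above background on 2 of the 5 lung arrays. Fgb, whose promoter is shown above, was between -0.17 and 0.42 in the lungs and between 8.05 and 8.81 in the livers (difference -8.41, well above background on 1 lung array), and Fga was at least 663-fold higher in liver. Ambp, the precursor of alpha-1-microglobulin, had a difference of -10.39, the largest of the list. The 1 gene not called was Hp, haptoglobin, which binds free hemoglobin: it was at 6.03 to 6.46 in the lungs and 6.36 to 7.08 in the livers, with overlap and a difference of -0.48 (SE 0.13).

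Complement and coagulation genes went both ways. Of 43 tested, 29 were higher in liver and 9 higher in lung, with a median difference of -2.81, and of the 24 detected in both tissues 13 and 7. The soluble factors led toward liver, among them Serpinc1 (antithrombin, -10.11), F2 (prothrombin, -7.04), F5 (-5.25), F9 (-4.86), Proc (protein C, -5.80) and C3, the central complement component. C3 was at 2.52, 1.23, 1.26, 1.16 and 0.96 in the lungs and between 5.37 and 6.11 in the livers, with the lung of mouse 1 the highest of the lungs (difference -4.34). Toward lung were several genes known from the vessel wall. Vwf, von Willebrand factor, was between 5.40 and 6.07 in the lungs and at -1.07, 1.16, 0.89, 1.03 and 1.09 in the livers (difference 5.13, SE 0.31, adjusted P = 1.05e-06). Thbd (thrombomodulin, which turns thrombin toward protein C) was at least 63.4-fold higher in lung, F3 (tissue factor) differed by 2.39 and Plat (tissue plasminogen activator) by 1.15. The C1q chains C1qa, C1qb and C1qc, made by macrophages, had differences of -0.61, -0.60 and -0.52 and were not called. The lung of mouse 1 was the highest lung for all 3 genes, and without mouse 1 they were called higher in liver (-0.95, -0.86 and -0.68). The probes of F10 disagreed: the brightest one was higher in lung (1.06) and the other was higher in liver (-3.76).

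Of 15 hepatocyte transcription factor genes tested, 14 were higher in liver, with a median difference of -4.37, and of the 4 detected in both tissues 3 were. Hnf4a, the nuclear receptor that sustains hepatocyte identity, was between -0.43 and -0.03 in the lungs and at 5.12, 4.27, 5.19, 4.88 and 4.47 in the livers, at least 644-fold higher in liver. Nr1h4, the bile acid receptor, differed by -6.59, Nr1i3 (the receptor CAR) was at least 53.6-fold higher, and Cebpa, used by both organs, differed by -2.20. Esrra was the gene not called (-0.57).

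Bile acid genes followed: 16 of 17 were higher in liver, with a median of -5.07, and 4 of the 5 detected in both tissues. Cyp7a1, the rate-limiting enzyme of bile acid synthesis, was at 4.33, 6.20, 3.44, 5.67 and 2.90 in the livers and at least 15.9-fold higher there. Its spread in liver (SD 1.41) was far above the median SD of 0.172 over the probes detected in both tissues. Cyp7b1, of the alternative pathway, was measured on all 10 arrays and differed by -5.22. The exporters Abcb11 and Abcc2 were at least 376-fold and at least 69.2-fold higher in liver. The gene counted toward lung, Slc10a1, the bile acid importer of hepatocytes, had probes that disagreed: its brightest probe gave 0.98 and its other probe gave -6.67, with no lung array well above background.

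All 31 urea cycle and amino acid catabolism genes tested were higher in liver, with a median of -5.80, and 15 of these were detected in both tissues. Cps1, which makes carbamoyl phosphate for the urea cycle, was between -0.16 and 0.12 in the lungs and between 7.66 and 8.25 in the livers, at least 306-fold higher. Ass1, argininosuccinate synthase, was measured in both tissues and differed by -5.49 (SE 0.11, adjusted P = 1.65e-09). The smallest difference of the list was that of Cbs, which makes cystathionine (-2.03).

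Fatty acid oxidation and ketogenesis genes were all higher in liver too, 23 of 23 tested, every one of them detected in both tissues, with a median of -2.94. Among the mitochondrial enzymes of the oxidation spiral, Acaa2 differed by -3.74, Acads by -3.21 and Hadhb by -0.85. Fabp1, the liver fatty acid binding protein, differed by -6.38. Cholesterol synthesis and uptake gave 21 of 22 genes higher in liver, with a median of -2.76, and 20 of the 21 detected in both tissues. Sc5d (-4.18) and Dhcr7 (-3.62), late enzymes, were among the largest differences of the synthesis genes, and Sqle differed by -1.48. Srebf2, the factor that drives the pathway, was not called and overlapped between the tissues (difference -0.06, SE 0.11).

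Glucose and glycogen genes went both ways, with 19 of 28 higher in liver and 7 higher in lung, and 11 and 6 of the 19 detected in both tissues. Gluconeogenesis lay on the liver side: G6pc differed by -6.10, Pck1 by -8.24 and Fbp1 by -7.66. At the step that phosphorylates glucose, Hk1, the high-affinity hexokinase, was between -1.09 and -0.76 in the lungs and between -4.37 and -3.88 in the livers (difference 3.20), with no overlap. A second probe of Hk1 did not pass (difference 0.09), so the Hk1 value rests on its brightest probe.

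Several isozyme families had a member on each side. Aldoa was higher in lung (1.73) and Aldoc was higher in liver (-1.47). The Aldoa lungs were at -0.76, -0.75, -0.90 and -0.68 in mice 1 to 4 and 0.81 in mouse 5, the array with skeletal muscle genes, and all 5 were above the livers (-2.26 to -2.08), and the difference without mouse 5 was 1.44. Pkm was higher in lung (2.44, SE 0.093) and Pklr, the liver pyruvate kinase, was at least 6.97-fold higher in liver. Pygb differed by 1.42 and Pygl, the liver glycogen phosphorylase, by -2.93. Gys1 was not called (0.50) while Gys2, the liver glycogen synthase, was at least 177-fold higher in liver, and of the glucose transporters Slc2a1 was not called (0.50) and Slc2a2 was at least 121-fold higher in liver. The lactate dehydrogenase subunits were measured on all 10 arrays. Ldhb, the heart-type subunit, was at 1.91, 2.05, 2.04, 2.23 and 1.92 in the lungs and between -3.09 and -2.78 in the livers (difference 5.02, SE 0.096, adjusted P = 1.39e-09). Ldha, the muscle-type subunit, was between -1.94 and -1.53 in the lungs and between -0.63 and -0.16 in the livers (difference -1.41, SE 0.088, adjusted P = 1.28e-06).

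**Figure D4:**
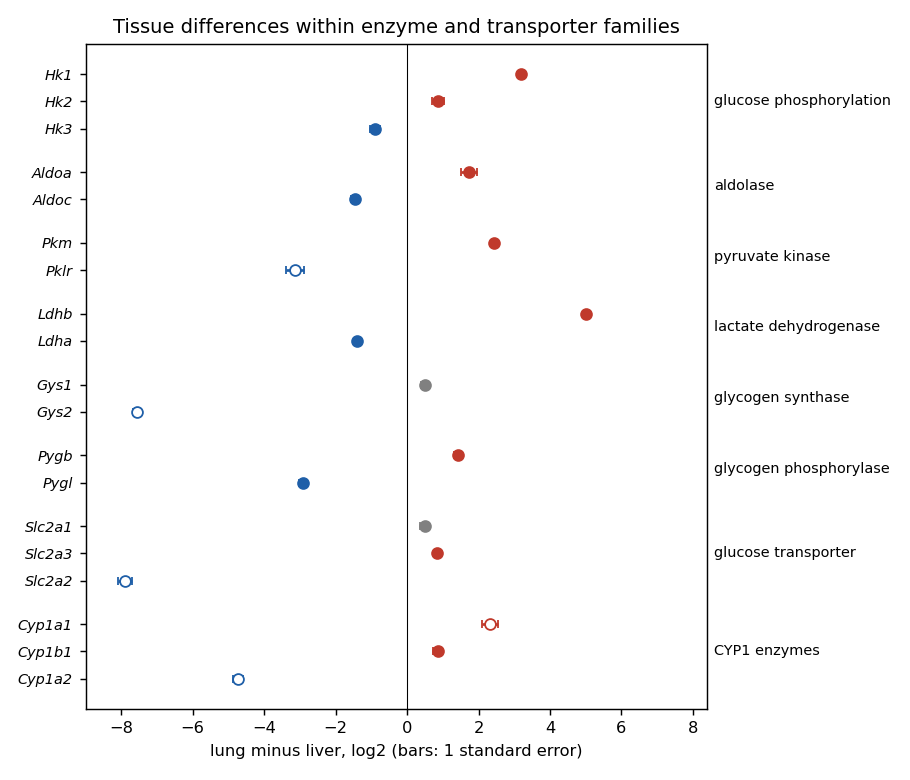
Lung minus liver difference (log2, points) with 1 standard error (bars) for isozymes of glucose and glycogen metabolism, glucose transporters and the CYP1 enzymes, red for genes called higher in lung, blue for higher in liver and gray for not called. Open points were not well above background on any array of 1 tissue, so their differences are not measured on both sides, and Aldoa against Aldoc, Pkm against Pklr and Ldhb against Ldha lie on opposite sides of 0.

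Genes for the activation and conjugation of such hydrocarbons were mixed, as 16 of 28 were higher in liver and 7 higher in lung, with a median of -1.02, and 13 and 5 of the 22 detected in both tissues. Ahr itself was at 1.59, 1.55, 1.72, 1.41 and 1.26 in the lungs and at 0.86, 0.94, 0.85, 0.79 and 0.43 in the livers, with no overlap (difference 0.73, SE 0.087, adjusted P = 6.97e-05). Arnt, its partner, was not called (0.55). Tiparp, an AHR target that modifies the receptor, differed by 1.40.

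The CYP1 genes went in opposite directions in these mice, which had received no BaA. Cyp1a1 was at 3.07, 2.78, 2.70, 1.60 and 2.22 in the lungs and was not well above background on any liver array, at least 3.81-fold higher in lung. Cyp1a2 was at 5.03, 4.35, 5.10, 4.87 and 4.45 in the livers and not well above background on any lung array, at least 173-fold higher in liver. Cyp1b1 was between -1.56 and -1.17 in the lungs and between -2.73 and -1.98 in the livers, where it was well above background on 3 of 5 arrays (difference 0.86, SE 0.13, adjusted P = 0.000256). The lungs of mice 4 and 5, which shared a slide, had the lowest Cyp1a1 values. Por, the reductase that feeds electrons to P450 enzymes, differed by 0.93 with overlap, and its livers ranged from -1.23 to 0.91. Ephx1, microsomal epoxide hydrolase, was not called (-0.38, with a second probe called at -1.02), nor was Nqo1 (0.19). Aldh3a1, an AHR-responsive aldehyde dehydrogenase, was higher in lung (2.12), at 2.87 in the lung of mouse 5 and 0.46 to 0.91 in the others, and it differed by 1.76 without mouse 5. Conjugating enzymes lay mostly on the liver side, with Ugt2b1 at least 159-fold higher in liver, Gstp1 at -4.19, Sult1d1 at -3.92 and Gsta3 at -3.45.

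Other P450 genes also went both ways: 11 of 15 were higher in liver and 3 were higher in lung, with a median of -5.41. Of the 6 detected in both tissues, however, 2 were higher in liver and 3 in lung. With the filter set to all 10 arrays, which left 5 genes, 1 was higher in liver and 3 in lung, and the median was 3.15. Cyp3a11 and Cyp2c29, major drug-metabolizing forms, were at least 186-fold and at least 858-fold higher in liver, and Cyp2e1, which oxidizes ethanol, differed by -5.41. Toward lung were Cyp2s1 (5.78), Cyp4b1 (4.93), a P450 of club cells, and Cyp2b10. Cyp2b10 lay between 5.24 and 5.46 in the lungs, while its livers ranged from 1.05 in mouse 1 to 3.60 in mouse 2 (difference 3.15, SE 0.32). Cyp2f2, often used as a club cell marker, did not separate the tissues: it was at 6.71, 7.04, 6.80, 7.27 and 6.95 in the lungs and at 6.96, 6.11, 6.88, 6.57 and 6.67 in the livers (difference 0.32, SE 0.17, adjusted P = 0.13). The 9 male-biased liver genes tested were higher in liver, but 8 of them entered the test through liver only and 1 was detected in both tissues, with Elovl3 at least 81.2-fold higher, and the urinary protein gene Mup20, whose livers ranged from 7.24 to 9.67, at -8.73.

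Nucleotide excision repair and p53 target genes had a median close to 0. Of 28 tested, 15 were not called, 9 were higher in lung and 4 higher in liver, with a median of 0.21, and 27 of them were detected in both tissues. With no filter on dim probes the median was -0.04. The damage sensors Xpa (-0.48) and Xpc (0.34) were not called, nor was Trp53 itself (-0.40). Cdkn1a, the cell cycle inhibitor p21, was between -0.98 and -0.26 in the lungs and between -3.41 and -2.63 in the livers (difference 2.42, SE 0.13, adjusted P = 5.36e-07). Ccng1 (1.36) and Mdm2 (0.96), also p53 targets, were higher in lung as well. Mgmt, which removes alkyl groups from guanine, had the largest difference of the list toward liver: it was between -2.53 and -1.81 in the lungs and between 0.28 and 1.04 in the livers (difference -2.93, SE 0.095, adjusted P = 2.28e-08).

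Epithelial lists marked the lung. Of 16 alveolar type 2 genes 15 were higher in lung and 0 in liver, with a median of 4.58, and 5 of the 6 detected in both tissues. Beside the surfactant proteins these included Napsa, the aspartic protease that trims them (at least 46.2-fold), Slc34a2, a phosphate transporter (at least 31.4-fold), Etv5 (4.28) and Abca3, the surfactant lipid pump (2.31). Sftpb, whose promoter is shown above, was at 6.57, 6.78, 6.47, 6.95 and 6.66 in the lungs and between -0.20 and 0.18 in the livers. Ctsh, a protease that acts on surfactant protein B, was the exception, at 5.82 to 6.45 in the lungs and 6.01 to 6.45 in the livers (difference under 0.01 in size, SE 0.13). Alveolar type 1 genes gave 12 of 13 higher in lung, with a median of 4.41, and 7 of the 8 detected in both tissues. Ager was between 5.79 and 6.09 in the lungs, Emp2 differed by 5.74 and Pdpn by 4.32, and Igfbp2 was not called (-0.47).

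Airway secretory genes gave 12 of 16 higher in lung and 2 higher in liver, with a median of 3.46. Of the 6 detected in both tissues 2 went each way, and with the filter set to all 10 arrays, which left 6 genes, the median was 0.11. Bpifa1, a secreted defense protein of the upper airway, was at 3.71, 5.41, 0.57, 6.59 and 5.68 in the lungs of mice 1 to 5, and was not well above background in any liver. Mouse 3 had by far the lowest lung value. Reg3g, an antimicrobial lectin, had the same order of mice, from 1.01 in mouse 3 to 5.20 in mouse 4. Pon1, paraoxonase, was higher in liver (-2.73) although it is on the secretory list. Krt8 was not called (-0.09), and Krt19, a keratin of ducts and airways, was higher in lung (5.67). Krt18 was called higher in liver (-0.64) but not without mouse 5 (-0.48), nor with LOWESS repeated from the scanner medians (-0.35), normexp (-0.26), median centring (-0.75) or Cy5 alone (-0.49). Ciliated cell genes gave 13 of 16 higher in lung, with a median of 2.69, and 4 of the 5 detected in both tissues. Foxj1, the master factor of motile cilia, was between 3.71 and 4.2 in the lungs and -0.05 to 0.22 in the livers, Tppp3 differed by 5.87, and Tekt1 was at least 24.9-fold higher in lung. Dnaic1, an axonemal dynein chain, was the 1 gene of this list higher in liver (-1.37).

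Most patterning factors were higher in lung. Of 22 tested, 18 were higher in lung and 0 in liver, with a median of 1.97, and 5 of the 7 detected in both tissues. Nkx2-1 was at 4.42, 4.71, 4.44, 4.37 and 4.13 in the lungs and between -0.04 and 0.06 in the livers, at least 18-fold higher in lung. Tbx4, of lung mesenchyme, differed by 5.19, and Tbx5 and Hoxa5 were at least 9.78-fold and at least 5.59-fold higher in lung. Foxa2, a pioneer factor of both endoderm organs, overlapped between the tissues (difference -0.15, SE 0.12, adjusted P = 0.305). Foxa1 missed the fold threshold (0.50, SE 0.17), and its liver in mouse 1 (4.29) was above every lung.

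Endothelial genes were mostly higher in lung, save those of liver sinusoids. Of 16 genes common to endothelial cells 14 were higher in lung and 0 in liver (median 2.78), and 12 of the 14 detected in both tissues. Cdh5, VE-cadherin, was at 6.86, 7.30, 6.89, 7.64 and 7.36 in the lungs and at 1.70, 2.60, 1.58, 2.07 and 2.48 in the livers (difference 5.13, SE 0.13, adjusted P = 6.31e-09). The brightest probe of Kdr, the VEGF receptor 2, was not called (0.16) while its other probe was higher in lung (2.66). Lung capillary genes gave 15 of 15 higher in lung (median 2.70), of which 7 were detected in both tissues and 8 in lung only, with Tmem100 at least 41.5-fold and Apln at least 13.9-fold higher. Sinusoidal genes went the other way in 7 of 12, with 3 higher in lung and a median of -1.86. Of the 9 detected in both tissues 4 were higher in liver and 3 in lung, and with the filter set to all 10 arrays the median was 0.04. Stab2, a hyaluronan scavenger receptor, was between -0.12 and 0.27 in the lungs and between 4.75 and 5.16 in the livers (difference -4.87), and Clec4g differed by -4.71. Lyve1, shared by liver sinusoids and lymphatic vessels, was higher in lung: 7.08, 7.54, 6.61, 5.80 and 6.35 against 0.62, 1.5, 0.61, 1.00 and 2.02 in the livers (difference 5.53, SE 0.29, adjusted P = 4.46e-07).

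Matrix and mesenchyme genes gave 26 of 32 higher in lung and 2 in liver (median 2.54), and 18 and 2 of the 23 detected in both tissues. Mfap4, an elastic fiber protein, differed by 6.17, Col1a1 by 3.89, Fbln5 by 3.69 and Cnn1, of smooth muscle, by 5.13, and Eln, elastin, was at least 4.08-fold higher in lung. Fn1, which hepatocytes secrete as plasma fibronectin, was between -2.01 and -1.33 in the lungs and between -0.07 and 0.38 in the livers (difference -1.84). Dcn was not called (0.22).

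Macrophage genes of the lung list were mostly higher in lung, and those of the Kupffer cell list were more often higher in liver. Of 16 alveolar macrophage genes 14 were higher in lung and 0 in liver, with a median of 3.42, and 9 of the 11 detected in both tissues. Ear1 was at 5.87, 5.91, 5.49, 4.92 and 4.95 in the lungs and at least 25.9-fold higher there, Chil3 differed by 5.88, and Siglecf was at least 7.12-fold higher with lungs between 2.39 and 4.51. For Ear1 and Siglecf the lungs of mice 4 and 5, on the third lung slide, were the lowest. Fabp4 was not called (0.29). Of 11 Kupffer cell genes 7 were higher in liver and 2 in lung (median -1.62), and 4 and 2 of the 7 detected in both tissues. With the filter set to all 10 arrays, which left 5 of these genes, 2 went each way and the median was -0.09. Clec4f was at 5.17, 5.47, 6.11, 6.29 and 5.70 in the livers and at least 37.9-fold higher there, Cd5l differed by -5.42 with the lung of mouse 1 (3.19) far above the other lungs (0.01 to 0.29), Vsig4 by -4.82, and Timd4 was not called (-0.55).

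Lymphocyte genes were higher in lung in 13 of 16 (median 1.39), and the natural killer, neutrophil and mast cell genes in 15 of 17 (median 1.2). Of the 7 genes of each list detected in both tissues 4 and 5 were higher in lung. Cd79b, of the B cell receptor, differed by 3.52, and Gzma, a granzyme, was between 4.76 and 6.26 in the lungs and between -0.07 and 0.37 in the livers (difference 5.44). S100a9, of neutrophils, had livers at 2.89, 1.5, 1.74, 5.12 and 2.01, with mouse 4 the highest in liver and, at 7.98, also in lung. Cd4 was higher in liver (-2.85), with lungs from 0.25 to 0.63 and livers from 2.99 to 3.46, while Cd3e, of the T cell receptor complex, was not called (-0.30).

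Antigen presentation genes gave 12 of 17 higher in lung and 2 in liver (median 1.13), and 11 and 2 of the 16 detected in both tissues. The class II genes led: H2-Aa differed by 4.35, Cd74 (the invariant chain) by 3.89 and H2-DMb1 by 3.47, against 1.13 for H2-Eb1 and 0.89 for H2-Ab1. The 2 genes higher in liver were Nlrc5, the class I transactivator (-1.47), and B2m (-0.81). B2m was not called with LOWESS repeated from the scanner medians (-0.44), with normexp background correction (-0.34) or from Cy5 alone (-0.56).

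The renin-angiotensin system is spread over both organs. Agt, the angiotensin precursor, was between 2.94 and 3.40 in the livers and at least 64.3-fold higher there. Ace, which makes angiotensin II, was at 4.50, 4.69, 4.34, 2.08 and 4.02 in the lungs, with mouse 4 the lowest, and between 0.04 and 0.52 in the livers (difference 3.67, SE 0.31, adjusted P = 8.41e-06). The receptor gene Agtr1a was higher in liver (-4.24). Of the 14 genes tested in this list 7 were higher in lung and 3 in liver (median 0.72), and 2 and 1 of the 6 detected in both tissues. In the list of growth hormone, iron and liver hormone genes 19 of 28 were higher in liver and 7 in lung (median -2.82), and 10 and 7 of the 19 detected in both tissues. Igf1 was between -0.76 and -0.23 in the lungs and between 5.61 and 5.87 in the livers (difference -6.24), Ghr, the growth hormone receptor, differed by -2.84, and Igfals was at least 21-fold higher in liver. Hamp, hepcidin, the iron hormone, was at 0.78, 0.60, 0.15, 2.40 and 1.29 in the lungs and between 4.43 and 5.17 in the livers (difference -3.79). Bmp6, the signal that induces hepcidin, was higher in lung (3.73), with lungs between 3.83 and 4.77 and livers between 0.30 and 1.12.

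Ribosomal and respiratory genes lay on opposite sides, and nearly all were detected in both tissues. Of 57 cytosolic ribosomal protein genes 39 were higher in lung and 1 higher in liver, with a median of 0.74, and Rps19 (1.53) and Rps12 (1.46) differed most. The lung count depended strongly on the processing. It was 53 with LOWESS repeated from the scanner medians (median 1.23), 22 with median centring (0.63) and 9 with Agilent's processed signals (0.34). The 1 toward liver, Rps2 (-0.69), was not called with LOWESS repeated from the scanner medians (-0.34) or with normexp (-0.25). Of 59 respiratory chain genes 48 were higher in liver and 3 in lung, with a median of -1.10. Sdhb, of complex II, differed by -2.49 and Uqcrq, of complex III, by -2.32. The 3 exceptions were isoforms of cytochrome oxidase subunits. Cox4i2, the lung isoform, was between 1.51 and 1.70 in the lungs and between -0.39 and -0.17 in the livers (difference 1.85, SE 0.093, adjusted P = 3.07e-07). Cox6a2 and Cox7a1, the heart and muscle isoforms, were at 1.94 and 2.65, and at 2.43 and 3.03, in the lungs of mice 4 and 5, and at 0.03 to 0.46 and -0.12 to 0.30 in those of mice 1 to 3. Without mouse 4 Cox7a1 was no longer called (1.11). These are the same arrays that were high for heart muscle genes, whose part in those values was not tested.

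Heat shock genes gave 8 of 15 higher in lung and 2 in liver (median 0.72). Hspb1 differed by 2.82 and Hsp90aa1 by 2.21 toward lung, and the mitochondrial chaperones Hspd1 (-1.08) and Hspa9 (-1.25) toward liver. Cell cycle genes gave 9 of 17 higher in lung and 0 in liver (median 0.73), with Ccnd1, cyclin D1, between 0.74 and 1.5 in the lungs and between -3.02 and -2.80 in the livers (difference 4.19), and Mki67 at 1.36. Of 15 clock genes 7 were not called, 2 were higher in lung and 6 in liver (median -0.40). Their levels also differed between mice: Dbp was at 0.31, 0.91, -0.81, 0.65 and -0.59 in the lungs and at 0.64, 1.92, -1.29, 2.10 and 1.22 in the livers, with mouse 3 the lowest in both tissues, and Per1 was lowest in mouse 3 in both tissues as well. Within mice Per1 differed by 1.43 (SE 0.14), Hlf by -1.90 and Nfil3 by -1.85.

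**Figure D5:**
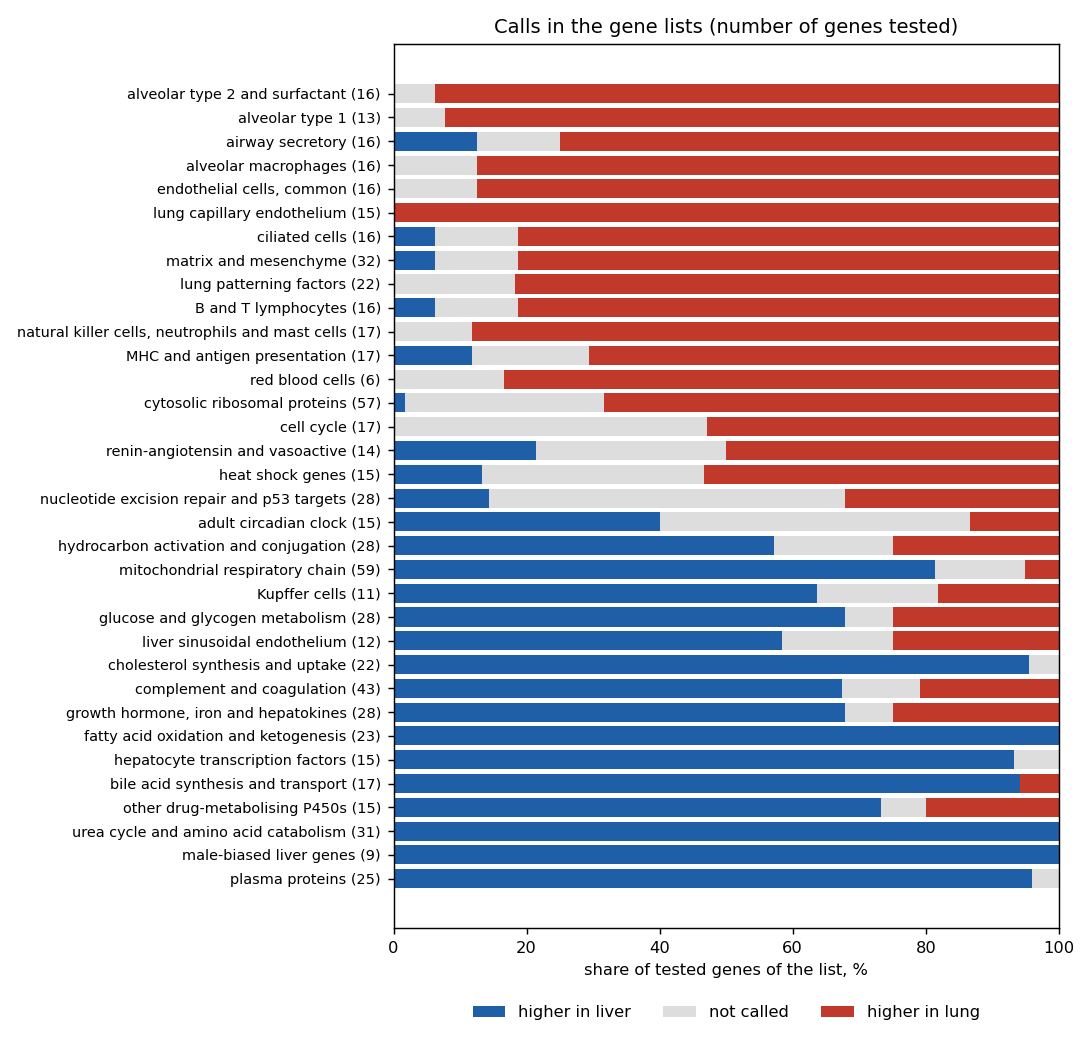
Share of the tested genes of each list (horizontal, %) called higher in liver (blue), not called (gray) or called higher in lung (red), ordered by median difference, with the number tested in brackets. Plasma protein, male-biased, urea cycle and fatty acid lists are almost wholly blue and the alveolar type 1 and 2, lung capillary, common endothelial and alveolar macrophage lists mostly red, while those of Kupffer cells and liver sinusoids are mixed with more blue, against 33.8% higher in lung and 25.5% higher in liver over all genes tested.

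Lists of tissues that a slice could carry along were measured too. Heart muscle genes were higher in lung in 6 of 7 tested (median 3.20), 3 of them detected in both tissues. The mean level over this list was 0.395 to 3.99 in the lungs and -0.974 to -0.788 in the livers. Without mice 4 and 5, 6 of the 7 were higher in lung and 1 in liver, with a median of 1.95. Skeletal muscle genes (4 tested, 0 called) had a median of 1.34, and of -0.07 without mouse 5. Of 7 fat genes the 6 that were detected in lung only were higher in lung and the 1 detected in both tissues was higher in liver (median 2.48), Cfd, adipsin, at 3.95 and Cidea at no less than 4.25-fold, with mean levels of 1.90 to 2.67 in the lungs and 0.346 to 0.90 in the livers. Of the red blood cell genes 5 of 6 were higher in lung (median 1.11), Hba-a1 by 1.03 and Hba-a2 by 1.2, and these globin copies share sequence. Squamous genes (3 tested, 0 called), pancreas genes (4 tested, 2 higher in liver, median -0.64) and genes of thymus and bone marrow (2 tested, both higher in liver, median -2.22) had 6 genes each that were too dim to test in both tissues.

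The tissue difference was then looked at in mice that the vehicle comparison had not used, all of them dosed with BaA. Their arrays were on the same single-tissue slides as the vehicle arrays, so tissue and slide cannot be told apart here either. The same paired fit called 54.3% of probes in D1 (5 mice), 55% in D2 (5 mice) and 55.6% in D3 (4 mice). Of the 14203 probes called in vehicle mice, 99.9%, 99.4% and 99.3% had the same direction in D1, D2 and D3, and 13042, 12649 and 12724 were called in that direction again. Among probes not called in vehicle mice, 87.1%, 82.9% and 83% also had the same direction. Of the probes called in vehicle mice, few reversed. There were 4, 11 and 15 called in the opposite direction. Ldhb, measured on all vehicle arrays, differed by 4.82, 4.78 and 4.88 against 5.02 in vehicle mice.

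A test of the difference between D3 and vehicle tissue differences called 523 of the 26249 probes. For Ahr the lung minus liver difference was 0.73 in vehicle mice and 1.16, 1.39 and 1.36 in D1, D2 and D3 (change at D3 0.63, adjusted P = 0.0275). For Ddb2, a damage sensor and p53 target, it was -0.82 in vehicle mice and 0.18 at D3 (change 0.98, adjusted P = 0.00356), after -0.43 at D1 and 0.03 at D2. Fabp1 went from -6.38 to -4.64 (adjusted P = 0.00533) and Agtr1a from -4.24 to -2.92 (adjusted P = 0.0109). Hspa1a, an inducible heat shock gene, went from 1.36 to -0.40 (adjusted P = 0.0288).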

How the data were processed

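Expression was measured on 2-color Agilent SurePrint G3 mouse arrays, with 10 arrays of vehicle tissue in the main comparison and 39 lung and liver arrays read in all. Per the file headers and the study's methods, the authors took median spot intensities from Feature Extraction 10.7.3.1 without background correction and normalized them by LOWESS, and the deposited table holds log2 ratios of tissue (Cy5) over reference RNA (Cy3). Its scale, direction and centring were checked against the scanner intensities. The deposited score for spots well above background chose the probes tested.

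Lung and liver were compared with limma 3.58.1 in R 4.3.3 with the mouse as a block, in place of the authors' MAANOVA test, and P values were adjusted by Benjamini-Hochberg over all 26249 probes. Adjusted P values in the text are from limma. The pairing comes from the mouse numbers in the labels. Deviations of lung and liver from their group means correlated at 0.033, 0.181, 0.18, 0.118 and 0.098 within mice and at -0.148 to 0.0882 between mice. The interaction with dose was fitted in 1 limma model with the mouse as a random block.

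The brightest probe stood for each gene. Genes named are the 10 per direction with the largest measured difference, the 10 with the largest bound, and members of 40 lists with 818 genes. The members and lists were chosen with earlier results of these data known. Alternatives covered normalization, filters, the fold threshold, the block, slides and each mouse left out. The number of arrays limits the precision, no dye swaps were made, and the 19 forestomach arrays were not used here. The code was tested on simulated data. Some genes that the naming rule selects are not reported here.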

Additional observations from a re-analysis of the deposited data

Results flagged for a closer look

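Of 366 groups of 5 arrays tested, over the genes named in the report, 23 had an array apart from the other 4 by Dixon's criterion, and chance alone marks about 1 in 20 groups. There were 9 on the lung array of mouse 5: Acta1 at 5.77, Tnni2 at 6.71, Tnnt3 at 5.56, Krt14 at 3.48, Aldh3a1 at 2.87, Aldoa at 0.812, Gys1 at -1.34, Ldha at -1.53 and Mgmt at -1.81, each above the other lungs. The lung of mouse 1 was apart for C3 (2.52), that of mouse 3 for Cebpa (3.58), and that of mouse 4 for Dnaic1 (2.46) and, on the low side, Ace (2.08).

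In liver, mouse 1 was apart for Mgp (-0.144), Tnni2 (0.162) and Vwf (-1.07), mouse 2 for Nqo1 (-0.917), mouse 3 for Myl4 (-1.7) and mouse 4 for Emp2 (-1.83). The liver of mouse 5 was apart for Akr1c6 (7.91), Cyp2e1 (8.55), H2-Aa (2.74) and Nr1h4 (4.67).

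The tissue difference at D3 differed from that in vehicle mice, by an interaction term in limma adjusted over all probes, for 5 genes of the report. It moved toward lung for Ahr (0.628), Ddb2 (0.978), Agtr1a (1.26) and Fabp1 (1.77) and toward liver for Hspa1a (-1.78).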

How the results depend on the processing

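Of 14203 probes called (7986 higher in lung, 6217 in liver; 620 list genes), a filter requiring all 10 arrays above background left 9352 of 16878 tested (4707 in lung, 381 list genes). A minimum fold of 4 left 3468, with 1907 in lung, 1561 in liver and 377 list genes. Median centring left 3559 in liver. Leaving out 1 mouse gave a total between 13987 and 14387, of which 7857 to 8096 were toward lung and 6130 to 6311 toward liver, and between 617 and 623 list genes. Without the replicate block there were 14174 called (7967 in lung and 6207 in liver), so the pairing moved no count by over 1.5 times. Other settings gave 13749 to 19996, apart from median centring (11723). Leaving out mice 4 and 5 or mice 2 and 5, both chosen after seeing the data, gave 14613 and 14120.

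Of 4775 pairs of a named gene and a setting, 4634 stayed on the same side of the threshold, 69 lost the call, 70 gained it and 2 turned: with all probes of a gene averaged, F10 was at -1.35 and Slc10a1 at -2.85. Leaving out mouse 4 ended the call of Cox7a1, leaving out mouse 5 that of Krt18 (-0.48), and leaving out mouse 2, 4 or 5 that of Dbp (-0.78, -0.67 and -0.58). Median centring ended the calls of Ddb2 (-0.19), Hba-a1 (0.40) and Por (0.69), and Agilent's processed signals those of F10 (0.49), H2-Ab1 (0.51) and Slc10a1 (0.52). Calls were gained without mouse 1 (Arnt, C1qa, C1qb, C1qc, Foxa1, Timd4, Tnni2), mouse 2 (Arnt, Hp, Igfbp2), mouse 3 (Esrra, Gys1, Slc2a1) and mouse 5 (Esrra). Without the replicate block Dbp was no longer called and C1qa was. Median list differences changed sign in 12 of 840 pairs of list and setting. Among them were the skeletal muscle list without mouse 5 and the list of other P450 genes with the filter set to all 10 arrays. A sign-flip test of list scores was not run. The causes were not tested.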
